A study of Mus musculus with 18 samples.

Results

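The 33 genes described here encode the enzymes that build cholesterol and fatty acids, the regulators of those enzymes and 2 transporters that export cholesterol. They were chosen by name as members of the pathway, and all 33 were found among the 23420 gene symbols of the data, 1 of them (Msmo1) under its older symbol Sc4mol. They fall into 6 branches: 5 regulators, 7 mevalonate steps, 11 sterol steps, 3 enzymes of fatty acid synthesis, 5 desaturases and elongases, and 2 efflux transporters.

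Cells make cholesterol from acetyl-CoA. The mevalonate steps build the isoprenoid units, and the sterol steps join them to squalene, close the rings and trim the product. Transcription of most of these genes is driven by the SREBP factors, which SCAP carries out of the endoplasmic reticulum when sterol is scarce and which INSIG1 holds back when it is plentiful. The LXR receptors respond to oxysterols in the opposite sense and switch on the exporters ABCA1 and ABCG1, as well as Srebf1 and the stearoyl-CoA desaturases. Activated B cells enlarge their membranes before they divide, so these pathways are commonly studied in lymphocyte activation.

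The study asked how the intracellular signaling (TIR) domains of TLR7 and TLR9 shape the response of lupus-prone B cells. Splenic B cells were isolated by negative selection with beads from MRL/lpr mice, which carry the Fas lpr mutation, at 5 to 7 weeks of age, and RNA was sequenced after 4 h in culture. The data comprised 18 libraries in 6 groups of 3. Tlr9het cells (Tlr9+/- Tlr7-/-) and Tlr997 cells (TLR9 carrying the TLR7 TIR domain, on Tlr7-/-) came from female mice and were kept unstimulated or given the TLR9 ligand CpG, a synthetic DNA, at 10 µg/ml, while Tlr779 cells (TLR7 carrying the TLR9 TIR domain, on Tlr9-/-) came from males and were kept unstimulated or given CL097, a TLR7 ligand, at 5 µg/ml. The titles give the control as Tlr9+/- while the treatment protocol writes Tlr9-/-, and the titles were followed here. The chimeric alleles were made by inserting the foreign TIR domain and a stop codon ahead of the native domain at each endogenous locus. B cells with wild-type TLR7 were not analysed here, so Tlr779 was compared only with its own unstimulated cells. Ligand, receptor, genotype, sex and cell number all changed together between that arm and the others.

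Levels are log2 CPM (read counts scaled to a common library total) after quantile normalization by the authors, which removes any change in total RNA per cell. The files hold no read counts, so the depth of each library is unknown and its part in the errors below could not be given. A gene was called higher or lower at a limma adjusted p under 0.05 over all genes tested and an absolute log2 fold change over 0.5. All 33 members passed the filter on low values in each comparison, though Tm7sf2 and Fads2 lay above 0 log2 CPM in only 12 and 11 of the 18 libraries. B-cell genes dominated the marker lists, with summed levels of 5520 to 7340 CPM over 6 genes in unstimulated libraries and 1650 to 3160 CPM with an agonist. Of these 6 genes 5 were called lower and 1 (Pax5, 0.54) higher in Tlr9het, 3 lower and 0 higher in Tlr997, where Ms4a1 (0.41) and Pax5 (0.47) stood above 0, and 4 lower and 0 higher with CL097. The 4 plasma cell genes summed to 427 to 1040 CPM in unstimulated libraries and 268 to 647 CPM with an agonist, and 3 of them (Sdc1, Xbp1 and Jchain) were called lower in each response, Sdc1 by -1.43, -2.02 and -2.49. The T cell genes summed to 49.8 to 118 CPM, the neutrophil genes to 16.8 to 164 CPM, the dendritic cell genes to 28.9 to 98.6 CPM and the NK cell genes to 0.386 to 6.91 CPM. Of these, Zbtb46 was called higher in all 3 responses, Cd8a, Ncr1 and Gzma in both CpG responses and Flt3 with CL097. Their other tested genes were not called, among them Siglech (-0.49, -0.8 and -0.73) and Itgax (-0.45, -0.38 and -0.13). Ncr1 was near the filter, with a mean of -2.57 log2 CPM unstimulated and 0.29 with CpG in Tlr9het. Lck stood at 5.46 to 6.62 log2 CPM, and no other T cell gene exceeded 2.72. The part of these cells in the members' changes was not tested. The 8 macrophage genes summed to 108 to 471 CPM, and the 5 erythroid genes to 12.3 to 484 CPM, highest in number 1 of Tlr9het and Tlr997 and in number 2 of Tlr779. In these bulk samples fewer cells of a type and less RNA per cell cannot be told apart.

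The stretch ahead of the transcription start is where the pathway's regulators bind, and 5 such stretches are shown because their genes gave the largest or most typical responses below. RefSeq promoter entries (GRCm38.p6) were available for 26 of the 33 members. The 250 bases before each entry's start were searched on both strands for 4 short motifs: TCACNCCAC (the core of a sterol regulatory element), CCAAT (the box bound by NF-Y, a frequent partner of SREBP), CACGTG (an E-box) and GGGCGG (a GC box bound by Sp1). A gene with several entries was counted as holding a motif if any entry did. Capitals mark every match, on either strand, and overlapping matches were each counted. The entries lie at chr13:8885356-8885605 (plus strand), chr13:119690101-119690350 (plus strand), chr10:76531355-76531604 (plus strand), chr11:120824548-120824797 (minus strand) and chr4:53159896-53160145 (minus strand), and each is written 5′ to 3′ in the direction of transcription. All of the Fasn stretch and part of the Lss and Abca1 stretches lie inside the annotated gene. The upstream ends of these genes are at 120825166, 76531565 and 53159988.

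Idi1: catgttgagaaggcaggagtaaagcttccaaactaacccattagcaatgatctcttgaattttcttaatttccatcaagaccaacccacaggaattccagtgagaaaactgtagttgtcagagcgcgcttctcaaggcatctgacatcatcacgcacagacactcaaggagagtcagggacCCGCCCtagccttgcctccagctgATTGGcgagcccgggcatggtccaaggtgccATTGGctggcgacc
Hmgcs1: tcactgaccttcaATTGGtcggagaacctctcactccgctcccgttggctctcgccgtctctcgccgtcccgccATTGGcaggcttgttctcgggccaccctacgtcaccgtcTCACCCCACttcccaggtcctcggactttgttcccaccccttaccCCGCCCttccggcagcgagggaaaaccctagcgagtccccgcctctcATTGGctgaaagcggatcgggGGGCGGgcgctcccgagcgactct
Lss: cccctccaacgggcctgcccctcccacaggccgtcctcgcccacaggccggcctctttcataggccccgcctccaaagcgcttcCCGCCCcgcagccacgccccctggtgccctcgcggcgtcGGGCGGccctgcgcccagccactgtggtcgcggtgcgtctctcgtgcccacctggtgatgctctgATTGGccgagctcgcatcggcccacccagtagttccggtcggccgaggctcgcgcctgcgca
Fasn: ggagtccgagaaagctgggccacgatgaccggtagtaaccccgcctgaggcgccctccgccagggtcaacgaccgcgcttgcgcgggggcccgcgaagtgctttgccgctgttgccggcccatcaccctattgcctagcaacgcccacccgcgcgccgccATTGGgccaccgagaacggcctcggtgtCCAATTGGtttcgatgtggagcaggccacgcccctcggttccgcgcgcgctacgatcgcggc
Abca1: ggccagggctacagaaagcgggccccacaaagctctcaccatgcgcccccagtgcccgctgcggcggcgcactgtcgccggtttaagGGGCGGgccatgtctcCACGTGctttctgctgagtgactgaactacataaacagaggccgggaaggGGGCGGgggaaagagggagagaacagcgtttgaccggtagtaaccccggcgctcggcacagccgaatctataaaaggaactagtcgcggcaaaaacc

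CCAAT stood in the promoters of 14 of the 15 mevalonate and sterol step genes with an entry (93.3%), against 37.5% of all 27025 genes in the table and 40.9% of the 8624 of them that were tested here. The Acat2 entry was the exception. GGGCGG was likewise found in 14 of the 15 (93.3%), but it is common in expressed genes, at 63.5% of those tested and 35.4% of all. An E-box was held by 3 of the 15 (20%), against 10.3% of tested genes and 6.86% of all. The letters TCACNCCAC were found in 1 member, Hmgcs1, 137 bases before its start, and in 1.22% of all genes. The Fasn stretch held 3 CCAAT matches, of which 2 overlapped, and the Abca1 stretch held none. These matches describe the letters only. No entry was matched for Fdps, Fdft1, Sqle, Scd1, Scd2, Fads1 and Abcg1.

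CpG raised most of the cholesterol pathway in Tlr9het B cells while lowering its exporters. Of the 33 members, 16 were called higher (48.5%) and 8 lower (24.2%), where 29.7% and 28.2% of the 11494 genes tested were called higher and lower. The members' median log2 fold change was 0.54, against 0.04 over all tested genes. In Tlr997 cells 17 members were called higher (51.5%) and 6 lower (18.2%), against 29.6% and 26% of all genes, with a median of 0.64 against 0.07. In Tlr779 cells given CL097 only 3 members were called higher (9.09%) and 7 lower (21.2%), against 22.7% and 23.6% of the 11082 genes tested, with a median of -0.05 against -0.02. Without number 3 of the CL097 group 5 members were called higher. So the share called higher lay above that of all genes in both CpG responses and below it in the CL097 response, as the heat map of all members by library also shows. Idi1, Acaca and Fasn were the 3 members called higher in all 3 responses, and Scd2 and Abca1 the 2 called lower in all 3.

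**Figure D1:**
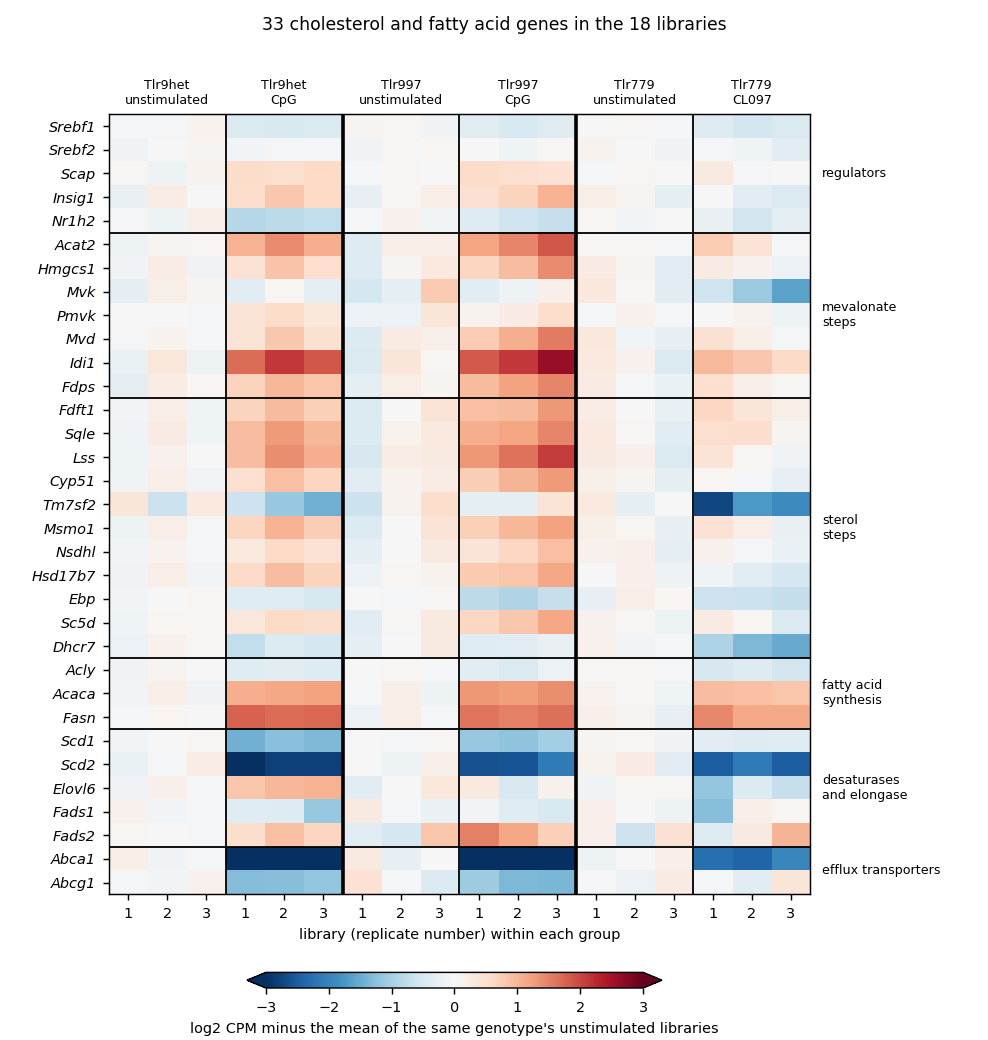
Heat map of the 33 members (rows, grouped by branch) in the 18 libraries (columns, grouped by genotype and treatment). Color gives log2 CPM minus the mean of the same genotype's 3 unstimulated libraries, limited to ±3. Most mevalonate and sterol steps are red in the 6 CpG libraries and pale with CL097, while Scd2 and Abca1 are blue in all 9 stimulated libraries.

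**Figure D2:**
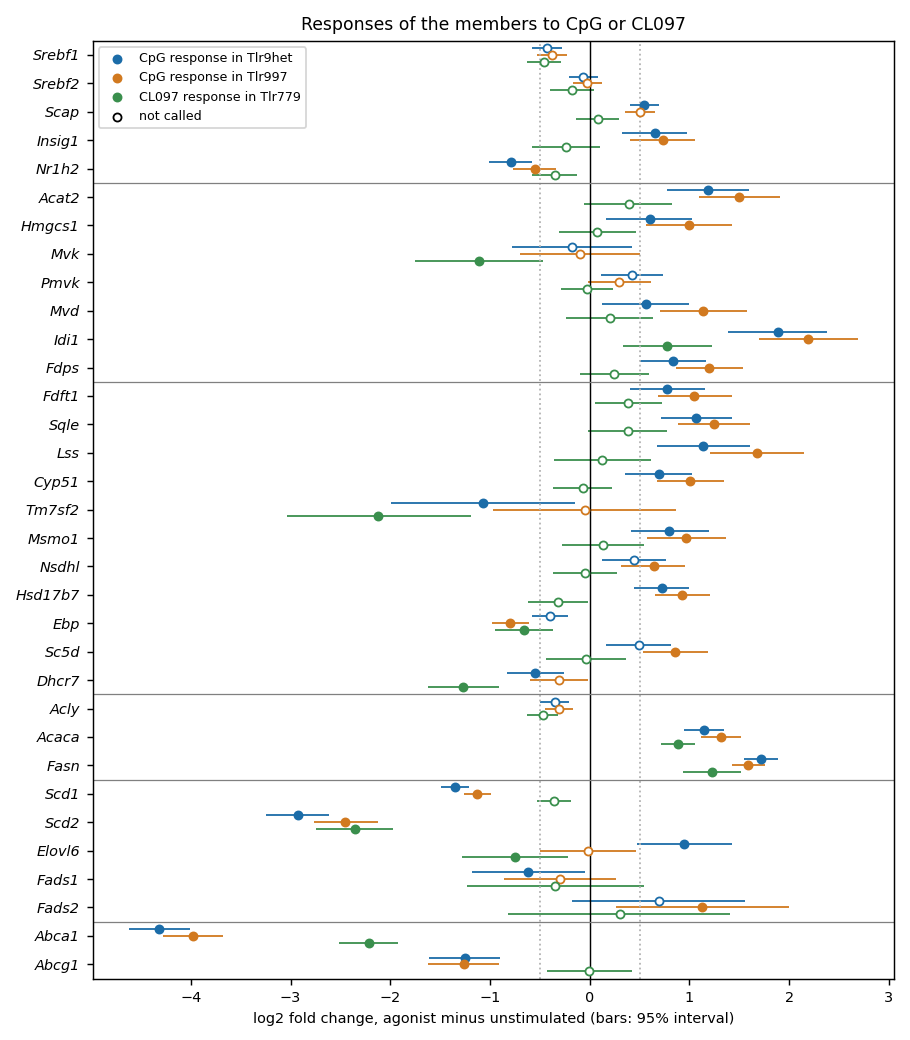
Log2 fold change of each member with its 95% interval in the 3 responses. Filled circles were called and open circles were not. The dotted lines stand at ±0.5, and the largest value on either side is 2.19 for Idi1 in Tlr997 and -4.32 for Abca1 in Tlr9het.

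The mevalonate steps gave the highest single rise. With CpG 5 of the 7 were called higher in Tlr9het and the same 5 in Tlr997, and none was called lower. That is 71.4% higher, against 29.7% of all tested genes in Tlr9het and 29.6% in Tlr997. Over all tested genes 28.2% and 26% were called lower. The branch's median log2 fold change was 0.6 in Tlr9het, 1.14 in Tlr997 and 0.2 in Tlr779. In Tlr779 1 gene was called higher and 1 lower (14.3% each), against 22.7% and 23.6% of all tested genes.

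Idi1, the isomerase that supplies dimethylallyl pyrophosphate, stood at 4.13, 4.67 and 4.16 log2 CPM in unstimulated Tlr9het cells and at 5.99, 6.45 and 6.18 with CpG. In Tlr997 cells it went from 3.71, 4.52 and 4.21 to 5.99, 6.26 and 6.77. In Tlr779 cells the levels were 4.66, 4.48 and 3.93 without and 5.32, 5.16 and 4.93 with CL097. The groups did not overlap in any of the 3 comparisons. The rise was 3.7-fold in Tlr9het (log2 fold change 1.89 ± 0.23 SE, adjusted p = 5.4e-06, n = 3 per group) and 4.57-fold in Tlr997 (2.19 ± 0.23, adjusted p = 1.4e-06). CL097 gave a smaller rise of 1.72-fold (0.78 ± 0.19, adjusted p = 0.0085).

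Mvk, which phosphorylates mevalonate, did not follow its branch. Its levels were 3.12, 3.56 and 3.46 log2 CPM in unstimulated Tlr9het cells and 3.05, 3.43 and 3.12 with CpG. They overlapped in Tlr997 as well, at 3.06, 3.33 and 4.39 against 3.28, 3.45 and 3.74. With CL097 they were 3.11, 2.59 and 2.1, all below the 4.02, 3.74 and 3.37 of unstimulated Tlr779 cells. That fall was 2.16-fold (log2 fold change -1.11 ± 0.28, adjusted p = 0.0085), while the CpG values of -0.18 (95% interval -0.78 to 0.42) and -0.1 (-0.7 to 0.5) were not called.

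The remaining mevalonate genes moved together with CpG. Acat2, which condenses acetyl-CoA, rose 2.28-fold in Tlr9het and 2.84-fold in Tlr997. Hmgcs1, the HMG-CoA synthase, rose 1.51-fold and 1.99-fold, Mvd, the mevalonate pyrophosphate decarboxylase, 1.47-fold and 2.2-fold, and Fdps, the farnesyl pyrophosphate synthase, 1.79-fold and 2.3-fold. Pmvk, the phosphomevalonate kinase, was not called, at log2 fold changes of 0.42 and 0.29. With CL097 these 5 lay between -0.03 (Pmvk) and 0.39 (Acat2), and none was called. The Tlr9het calls of Hmgcs1 and Mvd were lost without number 1 or 3 of the unstimulated group or number 2 of the CpG group, with log2 fold changes of 0.46 to 0.54 and 0.44 to 0.54. Each such fit keeps the same-numbered partner of the library left out. Within same-numbered pairs Hmgcs1 rose by 0.54, 0.63 and 0.61 and Mvd by 0.48, 0.7 and 0.49.

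In the sterol steps 6 of the 11 genes were called higher and 2 lower in Tlr9het, 8 higher and 1 lower in Tlr997, and 0 higher and 3 lower in Tlr779 with CL097. The shares called higher were 54.5%, 72.7% and 0%, against 29.7%, 29.6% and 22.7% of all tested genes. The shares called lower were 18.2%, 9.09% and 27.3%, against 28.2%, 26% and 23.6%. So lower calls were less frequent than over all genes with CpG and near that share with CL097. The median log2 fold changes were 0.69, 0.93 and -0.05.

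Lss, which cyclizes squalene epoxide to lanosterol, had the largest CpG rise of the branch. It was measured at 4.52, 4.77 and 4.64 log2 CPM in unstimulated Tlr9het cells and at 5.56, 6.04 and 5.74 with CpG. In Tlr997 cells the levels were 3.94, 4.64 and 4.7, then 5.73, 6.06 and 6.53. In Tlr779 cells they were 4.88, 4.76 and 4.16, then 5.02, 4.67 and 4.5. All CpG libraries lay above their unstimulated group, and the CL097 libraries overlapped theirs. The folds were 2.2 (log2 fold change 1.14 ± 0.22, adjusted p = 0.00034), 3.21 (1.68 ± 0.22, adjusted p = 1.1e-05) and 1.09 (0.12, 95% interval -0.36 to 0.61, adjusted p = 0.63).

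Sqle, the squalene epoxidase, rose 2.1-fold in Tlr9het and 2.38-fold in Tlr997, and Fdft1, the squalene synthase, 1.72-fold and 2.08-fold. Cyp51, which removes a methyl group from lanosterol, rose 1.62-fold and 2.02-fold. Msmo1, the sterol methyl oxidase, rose 1.75-fold and 1.96-fold, and Hsd17b7, a sterol ketoreductase, 1.64-fold and 1.9-fold. Nsdhl and Sc5d, a dehydrogenase and a desaturase of the late pathway, were called higher in Tlr997 at log2 fold changes of 0.64 and 0.86 but fell short of the threshold in Tlr9het at 0.44 and 0.49, and whether these responses differ is answered by the test of the difference below. The Tlr997 call of Nsdhl was lost without number 1 of its unstimulated group, at 0.49. With CL097 these 7 genes lay between -0.32 (Hsd17b7) and 0.38 (Fdft1 and Sqle), with no call.

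A few late enzymes went the other way. Tm7sf2, a sterol reductase, was measured near the filter of 0 log2 CPM, at 1.31, 0.32 and 1.24 in unstimulated Tlr9het cells and 0.34, -0.18 and -0.49 with CpG. In Tlr997 cells it lay at -0.14, 0.61 and 1.03, then 0.21, 0.23 and 0.92. In Tlr779 cells it went from 1.41, 0.85 and 1.12 to -1.61, -0.59 and -0.78. The groups separated only with CL097. If the most frequent value, -5.05 log2 CPM, is taken as 0 reads, 3 reads would lie near -2.24. That level is rough, because the lowest values differed by gene and replicate number. Hbb-b1, for example, stood at -4.94, -4.76 and -5.46 in unstimulated Tlr997. The Tm7sf2 values lie above that level, but their read counts are unknown. The CL097 fall was -2.12 on the log2 scale (± 0.4 SE, adjusted p = 0.0021). The CpG fall in Tlr9het, -1.07 ± 0.43 (adjusted p = 0.037), was lost without number 1 or 3 of the unstimulated group or number 2 or 3 of the CpG group, at -0.88 to -1.04.

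Dhcr7, which makes cholesterol in the last step of one branch of the pathway, fell 1.46-fold in Tlr9het (log2 fold change -0.55 ± 0.13, adjusted p = 0.0023) and 2.4-fold with CL097 (-1.27 ± 0.15, adjusted p = 0.00021), and was not called in Tlr997 at -0.31. Its Tlr9het call was lost without number 2 of the unstimulated group (-0.48) or number 1 of the CpG group (-0.45). Ebp, the sterol isomerase, fell 1.74-fold in Tlr997 (-0.8 ± 0.09, adjusted p = 1.7e-06) and 1.58-fold with CL097 (-0.66 ± 0.13, adjusted p = 0.0023), and stood at -0.4 in Tlr9het, short of the fold threshold.

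Among the regulators, Insig1, the sterol-sensing anchor and itself a target of SREBP, had the largest CpG rise. Levels were 6.41, 6.87 and 6.65 log2 CPM in unstimulated Tlr9het cells and 7.18, 7.46 and 7.25 with CpG. They were 6.38, 6.68 and 6.84, then 7.11, 7.31 and 7.67 in Tlr997. In Tlr779 they were 6.59, 6.48 and 6.14, then 6.41, 6.09 and 5.98. Separation was complete in both CpG comparisons and absent with CL097. The rise was 1.57-fold in Tlr9het (0.65 ± 0.15, adjusted p = 0.0017) and 1.66-fold in Tlr997 (0.73 ± 0.15, adjusted p = 0.00075), while CL097 gave -0.24 (95% interval -0.58 to 0.1).

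Nr1h2, which encodes LXR beta, had the lowest log2 fold change of the 5 regulators in both CpG responses. It went from 6.51, 6.38 and 6.73 to 5.69, 5.73 and 5.81 log2 CPM in Tlr9het, from 6.44, 6.61 and 6.41 to 6.1, 5.9 and 5.8 in Tlr997, and from 6.68, 6.54 and 6.62 to 6.39, 6.07 and 6.33 in Tlr779. All stimulated libraries lay below their own unstimulated group. The fall was called in Tlr9het (-0.79 ± 0.1, adjusted p = 7e-06) and Tlr997 (-0.55 ± 0.1, adjusted p = 0.00021), although the latter was lost without number 2 of its unstimulated or number 3 of its CpG group, both at -0.49. With CL097 it was -0.35, short of the fold threshold.

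Scap, the SREBP escort, was called higher in Tlr9het at 0.54, but not without number 2 of the unstimulated group (0.47), nor in Tlr997 (0.5). The transcripts of the SREBP factors themselves moved little. Srebf1 gave log2 fold changes of -0.43, -0.38 and -0.46 in Tlr9het, Tlr997 and Tlr779, with no overlap between the groups in any of them but below the fold threshold. Srebf2 gave -0.07, -0.03 and -0.18, with overlap in all 3.

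Fatty acid synthesis was the branch in which CL097 gave the same calls as CpG: Acaca and Fasn were called higher and Acly was not called in all 3 responses. Fasn, the fatty acid synthase, stood at 8.29, 8.4 and 8.34 log2 CPM in unstimulated Tlr9het cells and 10.11, 10.02 and 10.06 with CpG. In Tlr997 it went from 8.16, 8.52 and 8.3 to 9.93, 9.84 and 9.99. In Tlr779 it went from 8.45, 8.39 and 8.06 to 9.73, 9.44 and 9.43. Every stimulated library lay above every unstimulated one. The folds were 3.29 (1.72 ± 0.08, adjusted p = 2.6e-10), 3.02 (1.59 ± 0.08, adjusted p = 6.9e-10) and 2.35 (1.23 ± 0.12, adjusted p = 7.6e-05).

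Acaca, the acetyl-CoA carboxylase that feeds Fasn, rose 2.22-fold, 2.49-fold and 1.85-fold in the same order. Acly, which makes cytosolic acetyl-CoA from citrate, was measured at 8.48, 8.65 and 8.6 log2 CPM in unstimulated Tlr9het cells and 8.22, 8.25 and 8.2 with CpG. It was at 8.56, 8.63 and 8.53, then 8.24, 8.14 and 8.4 in Tlr997, and at 8.74, 8.73 and 8.63, then 8.23, 8.31 and 8.14 in Tlr779. The stimulated libraries all lay below their own unstimulated group, yet the log2 fold changes of -0.35, -0.31 and -0.47 did not reach the threshold.

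**Figure D3:**
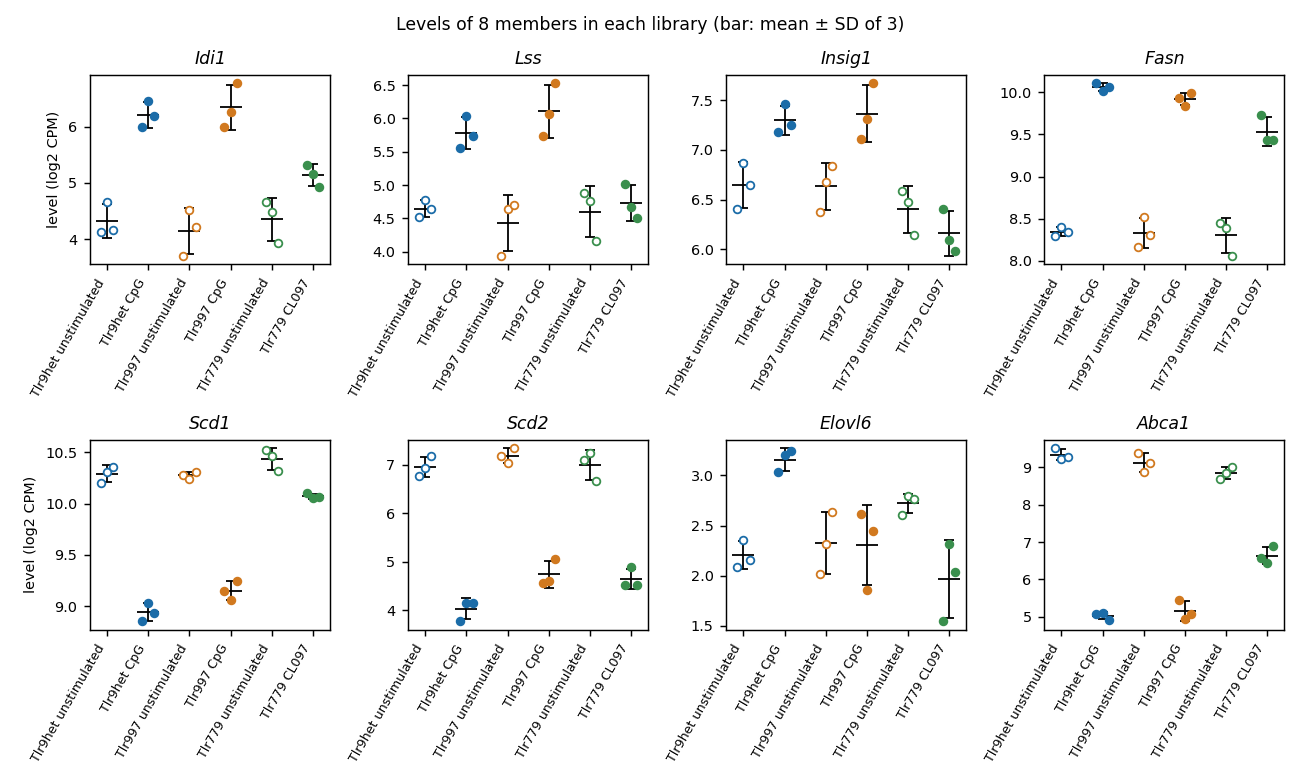
Level of 8 members in every library, in log2 CPM, with the mean and SD of each group of 3 (open circles, unstimulated; filled, CpG or CL097; each panel has its own scale). Elovl6 lies at 3.03 to 3.24 in Tlr9het with CpG and at 1.55 to 2.32 in Tlr779 with CL097, and Abca1 at 4.91 to 5.45 with CpG and 6.44 to 6.9 with CL097.

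Both stearoyl-CoA desaturases fell with CpG, while Fasn and Acaca rose. Scd2, which makes monounsaturated fatty acids, went from 6.77, 6.93 and 7.18 log2 CPM in Tlr9het to 3.78, 4.16 and 4.16 with CpG. It went from 7.19, 7.04 and 7.34 to 4.57, 4.6 and 5.06 in Tlr997. With CL097 it went from 7.11, 7.25 and 6.66 to 4.53, 4.89 and 4.53. No stimulated library overlapped an unstimulated one. The falls were 7.63-fold (-2.93 ± 0.15, adjusted p = 8.4e-10), 5.45-fold (-2.45 ± 0.15, adjusted p = 6.4e-09) and 5.11-fold (-2.35 ± 0.17, adjusted p = 1.4e-05).

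Scd1, its paralog, fell 2.55-fold in Tlr9het (-1.35 ± 0.06, adjusted p = 4e-10) and 2.18-fold in Tlr997 (-1.13 ± 0.06, adjusted p = 3e-09), and stood at -0.36 with CL097, short of the fold threshold. Scd1 and Scd2 are neighbors on chromosome 19 with similar coding sequences, and how reads that fit both were counted is not given in the sources used here. Fads1, a polyunsaturated fatty acid desaturase, was called lower in Tlr9het at -0.62 (adjusted p = 0.047). That call was lost without any of 8 single libraries, the smallest value being -0.36 without number 3 of the CpG group. Fads2, its partner, was called higher in Tlr997 at 1.13 (adjusted p = 0.022), from levels near 0 log2 CPM, and this was lost without number 1 or 2 of either group, at 0.88 to 1.12.

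Elovl6, the elongase that extends palmitate, was the 1 member called in opposite directions. It stood at 2.09, 2.36 and 2.16 log2 CPM in unstimulated Tlr9het cells and 3.03, 3.2 and 3.24 with CpG, with no overlap. In Tlr997 the levels were 2.02, 2.32 and 2.64, then 2.62, 1.86 and 2.45, and overlapped. With CL097 they fell from 2.61, 2.79 and 2.76 to 1.55, 2.32 and 2.04, again without overlap. The log2 fold changes were 0.95 ± 0.22 (adjusted p = 0.0017), -0.02 (95% interval -0.5 to 0.46) and -0.75 ± 0.23 (adjusted p = 0.021). The CL097 call was lost without number 2 or 3 of unstimulated Tlr779, at -0.71 and -0.73.

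The exporter Abca1 gave the largest change of any member with CpG. It loads cholesterol onto apolipoprotein A-I and is a classical LXR target. Abca1 stood at 9.51, 9.24 and 9.28 log2 CPM in unstimulated Tlr9het cells and at 5.08, 5.1 and 4.91 with CpG. It went from 9.4, 8.88 and 9.12 to 5.45, 4.93 and 5.08 in Tlr997. With CL097 it went from 8.7, 8.85 and 9 to 6.58, 6.44 and 6.9. The groups lay far apart each time, with the CL097 libraries between the unstimulated and the CpG ones. The falls were 19.9-fold (-4.32 ± 0.14, adjusted p = 1.6e-11), 15.8-fold (-3.98 ± 0.14, adjusted p = 4.3e-11) and 4.63-fold (-2.21 ± 0.13, adjusted p = 6.9e-06).

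Abcg1, which passes cholesterol to high-density lipoprotein, fell with CpG and not with CL097. Levels were 6.46, 6.43 and 6.65 log2 CPM, then 5.21, 5.24 and 5.34 in Tlr9het. They were 6.96, 6.48 and 6.11, then 5.46, 5.16 and 5.14 in Tlr997. In Tlr779 they were 6.34, 6.23 and 6.66, then 6.38, 6.07 and 6.77, and overlapped. The log2 fold changes were -1.25 ± 0.16 (adjusted p = 1.2e-05), -1.26 ± 0.16 (adjusted p = 1.2e-05) and -0.01 (95% interval -0.43 to 0.42).

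Macrophages express both exporters, and macrophage genes moved to a smaller extent in the same libraries. Their 8-gene sum was 221 to 279 CPM in unstimulated Tlr9het cells and 163 to 195 CPM with CpG, 138 to 370 and 121 to 234 CPM in Tlr997, and 198 to 471 and 108 to 221 CPM in Tlr779. Of the 8 genes, 1, 1 and 2 were called lower in the 3 responses and 1 (Itgam, in Tlr997) higher, and Lyz2, lower in each of them, fell by 0.97, 1.08 and 1.65 on the log2 scale. The median of the 8 was -0.28, -0.28 and -0.22. The part of these cells in the exporters' fall was not tested.

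Before stimulation no member was called between unstimulated Tlr997 and Tlr9het by limma, where 0.0174% of genes were called higher and 0% lower, and 1 of the 33 members (Ebp, 0.31 higher in Tlr997) and 1237 of 11494 genes had an unadjusted p under 0.05. The members' median difference was -0.02, and single members lay between -0.46 (Tm7sf2) and 0.31 (Ebp).

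With CpG, 1 member was called higher in Tlr997 than in Tlr9het (3.03% of 33, against 1.25% of all genes) and 1 lower (3.03%, against 1.47%). Scd2 was 1.64-fold higher, at 4.57, 4.6 and 5.06 against 3.78, 4.16 and 4.16 log2 CPM (difference 0.71 ± 0.15, adjusted p = 0.014). Elovl6 was 1.8-fold lower, at 2.62, 1.86 and 2.45 against 3.03, 3.2 and 3.24 log2 CPM (difference -0.85 ± 0.22, adjusted p = 0.043). Neither gene overlapped between the groups, but neither call was stable. The Scd2 call was lost without number 3 of Tlr997 with CpG (0.55, adjusted p = 0.053) or number 1 of Tlr9het with CpG (0.59, adjusted p = 0.069). The Elovl6 call was lost without any of 9 single libraries, at -0.62 to -0.92, among them number 2 of Tlr997 with CpG (adjusted p = 0.15). Among the B-cell markers, 3 of 6 were called higher in CpG-treated Tlr997 cells as well, Ms4a1 by 1.26, Cd79b by 1.04 and Cd22 by 0.58 on the log2 scale, and their part in the Scd2 difference was not tested. Leaving out number 1 of all 4 groups, the libraries with the highest erythroid genes, ended both calls as well, at 0.67 (adjusted p = 0.081) and -1.06 (adjusted p = 0.09).

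The responses themselves were then compared in the same model. No member's CpG response was called different between the genotypes by limma, against 0.687% of genes called higher and 0.853% lower, while 4 of the 33 members and 1839 of 11494 genes had an unadjusted p under 0.05. The 4 were Ebp (-0.4), Scd1 (0.23), Scd2 (0.48) and Elovl6 (-0.97, adjusted p = 0.15). The difference was positive for 27 of the 33 members, including 16 of the 18 mevalonate and sterol steps, with a median of 0.23 over the members and 0.01 over all tested genes. The quartiles over all tested genes were -0.17 and 0.21, and the share of positive differences among them was not counted. The steps varied together between libraries and are not 18 separate results. Number 1 of Tlr997 was the lowest of its group for 17 both unstimulated and with CpG. Number 3 of Tlr997 was the highest for 15 unstimulated and for 18 with CpG. Among the steps, Lss had a difference of 0.54 (95% interval -0.12 to 1.21, adjusted p = 0.41), Mvd 0.58 (-0.04 to 1.2, adjusted p = 0.34) and Hmgcs1 0.4 (-0.22 to 1.02, adjusted p = 0.54). These differences could not be told from 0 in this model, which leaves out the replicate number. Given the replicate number as a block, which the labels share between treatments, the Lss difference was called (adjusted p = 0.043). Without the block it dropped to 0.3 without number 1 of unstimulated Tlr997 and to 0.33 without number 3 of Tlr997 with CpG. Dropping either library leaves its same-numbered partner in the fit. Within same-numbered pairs Lss rose by 1.8, 1.42 and 1.83 in Tlr997 and by 1.04, 1.27 and 1.1 in Tlr9het. Mvd rose by 1.17, 0.84 and 1.41 against 0.48, 0.7 and 0.49, and Hmgcs1 by 1.04, 0.83 and 1.12 against 0.54, 0.63 and 0.61. Such pairs were not compared over all genes.

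The CpG response of Tlr9het and the CL097 response of Tlr779 were compared in 1 model of their 12 libraries, a test chosen after the data had been seen. Agonist, dose, receptor, genotype, sex and the number of cells per culture all differ between these arms and cannot be told apart here. The paper also reports that only a minority of follicular B cells express TLR7, and that TLR779 is expressed below TLR7. The share of responding cells may thus differ, and its part was not tested. Over all genes 6650 were called in the CpG response of Tlr9het and 5135 in the CL097 response of Tlr779. The labels give 5 to 7 weeks of age for both arms, but the methods give 5 weeks for the females, so age may differ too. In all, 12 members had a higher response with CpG (36.4%, against 10.7% of the 11488 genes tested) and 3 a lower one (9.09%, against 11.9%). The median difference was 0.49 over the members and 0.05 over all genes. All 18 mevalonate and sterol steps had a positive difference, from 0.26 (Ebp) to 1.1 (Idi1), and 10 of them were called. These genes varied together between libraries, so they are not 18 separate results. The share of all genes with a positive difference was not counted.

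Idi1 had a response 1.1 larger with CpG on the log2 scale (± 0.28, adjusted p = 0.0093), Hsd17b7 1.04 (± 0.18, adjusted p = 0.0011), Lss 1.01 (± 0.27, adjusted p = 0.011) and Insig1 0.89 (± 0.21, adjusted p = 0.0056). Mvk (0.93) and Dhcr7 (0.72) were also called, with CpG responses of -0.18 and -0.55 and CL097 responses of -1.11 and -1.27. The other mevalonate and sterol steps called were Acat2, Fdps, Sqle, Cyp51 and Msmo1, at 0.6 to 0.8. Of the 15 calls 5 were lost without at least 1 single library, namely Acat2, Mvk, Fdps, Sqle and Msmo1, and the count of higher responses fell to 7 without number 1 of unstimulated Tlr9het and likewise without the libraries highest in erythroid genes.

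The difference was widest in opposite directions for Elovl6 (1.7 ± 0.26, adjusted p = 0.00051) and Abca1 (-2.1 ± 0.16, adjusted p = 5.4e-06). Abcg1 differed by -1.24 ± 0.21 (adjusted p = 0.001) and Scd1 by -0.99 ± 0.09 (adjusted p = 2.2e-05), both lower with CpG. Fatty acid synthesis did not give a call, at 0.12 for Acly, 0.26 for Acaca (95% interval 0.01 to 0.52) and 0.49 for Fasn (0.18 to 0.8). Scd2 was not called either, at -0.58 (-1.09 to -0.07).

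**Figure D4:**
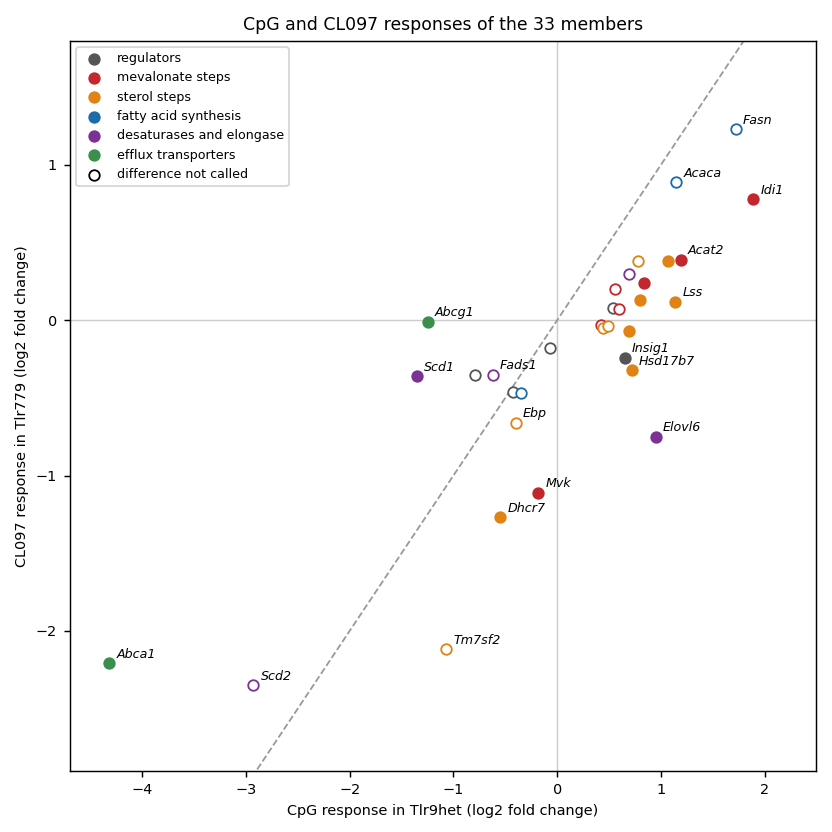
Log2 fold change with CpG in Tlr9het (horizontal) against that with CL097 in Tlr779 (vertical) for the 33 members, colored by branch. Filled circles had a called difference of responses, and the dashed line marks equal responses. All mevalonate and sterol steps lie to the right of the line, while Abca1, Abcg1 and Scd1 lie to its left.

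The mevalonate and sterol steps also varied together between replicate libraries. In unstimulated Tlr9het cells number 2 was the highest of the 3 libraries for 16 of the 18 genes, and with CpG number 2 was again the highest for 17. In Tlr997 number 3 was the highest for 15 genes unstimulated and for all 18 with CpG, and number 1 the lowest for 17 in each. In Tlr779 number 1 was the highest for 14 and 15 genes and number 3 the lowest for 15 and 17. Thus the order of the 3 numbers was largely shared by a genotype's unstimulated and stimulated cells. Over all genes same-numbered samples also deviated together in Tlr9het and Tlr779, and the order was not counted for them.

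Within same-numbered pairs 14 of the 18 genes were higher with CpG in all 3 pairs of Tlr9het, and 14 in all 3 of Tlr997, with median differences of 0.58, 0.71 and 0.68 and of 1.05, 0.83 and 0.97 log2 CPM. With CL097 7 were higher and 5 lower in all 3 pairs, with medians of 0.07, 0 and 0.03. These counts were not made over all genes, so no background share can be set beside them. The erythroid sums of the same libraries were 162, 40 and 13.4 CPM in unstimulated Tlr9het, 478, 20.9 and 47.2 CPM in Tlr997 and 79.2, 461 and 91.4 CPM in Tlr779. Their part in the order of the libraries was not tested.

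**Figure D5:**
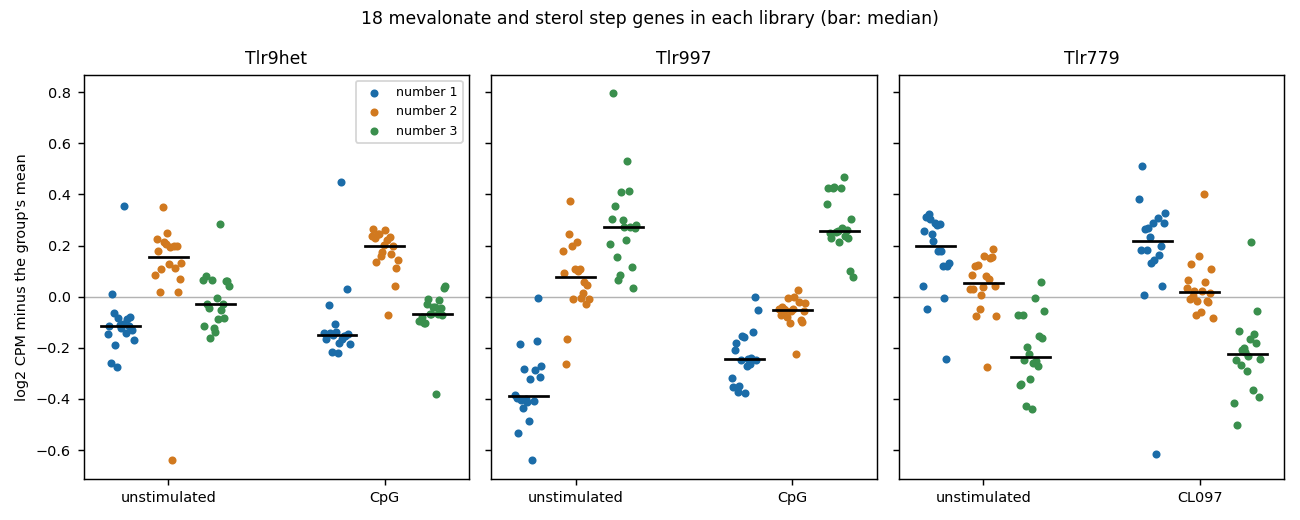
Level of each of the 18 mevalonate and sterol step genes minus the mean of its group, in log2 CPM, by replicate number (color) for unstimulated and stimulated cells of the 3 genotypes. Bars are medians. The same number lies highest before and after stimulation in each genotype: 2 in Tlr9het, 3 in Tlr997 and 1 in Tlr779.

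Related genes, from 8 lists of 55 genes around the pathway, were counted in the same fits. Over all genes tested 29.7%, 29.6% and 22.7% were called higher and 28.2%, 26% and 23.6% lower in Tlr9het, Tlr997 and Tlr779. The lists are short, some of their counts lie near these shares, and no list was tested as a set. Of 3 other sterol step genes 1 was called higher and 1 lower in Tlr9het, 2 and 1 in Tlr997 and 0 and 1 with CL097. Their median log2 fold changes were 0.46, 0.64 and -0.25. The gene called lower was Lbr, a sterol reductase that also anchors chromatin at the nuclear envelope. It fell at -0.79 in Tlr9het, -0.84 in Tlr997 and -0.61 with CL097.

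Among 7 genes of sterol uptake and handling, 2 were called higher and 5 lower in each CpG response, and 0 and 5 with CL097. Lipa, the lysosomal lipase, fell at -2.16, -2.03 and -1.42. Of 9 oxysterol and LXR genes 7 were tested, with 1 higher and 2 lower in each CpG response and 0 and 2 with CL097. Mylip, a ubiquitin ligase and LXR target, fell 8.24-fold, 7.65-fold and 2.23-fold. Hsd3b7, a bile acid enzyme, rose at 0.95 and 1.58 with CpG. Cyp27a1, an oxysterol-forming hydroxylase, was called lower in each response from levels of at most 2.11 log2 CPM. All its agonist libraries lay below 0, some at or under the rough level inferred for 3 reads.

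Of 9 isoprenoid-using genes 4 were called higher and 0 lower in each CpG response and 3 and 1 with CL097, led by Pdss1, which makes the ubiquinone tail, at 2.12, 2.05 and 1.61. The smallest such rise in Tlr9het was that of its partner Pdss2, at 0.92. Of 4 SREBP-processing genes only Mbtps2, the site-2 protease, was called, higher at 0.57, 0.54 and 0.56. Of 8 fatty acid oxidation genes 0 were called higher in any response and 3, 3 and 4 lower. Cpt1a, the gatekeeper of mitochondrial fatty acid import, fell at -3.96, -3.8 and -3.19, and the smallest fall called in Tlr9het was that of Acadm, a medium-chain dehydrogenase, at -1.23.

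In the supply of acetyl-CoA and NADPH 5 of 6 genes were tested, with 1 higher and 2 lower in Tlr9het, 2 and 2 in Tlr997 and 1 and 1 in Tlr779. Slc25a1, the citrate carrier, rose at 1.07, 0.77 and 1.12. Idh1, the cytosolic isocitrate dehydrogenase, fell at -1.79, -0.6 and -2.37 and was the 1 related gene whose CpG response was called different between the genotypes. With CpG it stood at 2.21, 2.4 and 2.37 log2 CPM in Tlr9het and 3.46, 3.26 and 3.52 in Tlr997, without overlap, and the difference of responses was 1.19 ± 0.2 (adjusted p = 0.0093). Of 8 acyl-CoA synthetases and other elongases tested, 3 were called higher and 2 lower in Tlr9het, 2 and 2 in Tlr997 and 1 and 1 in Tlr779, from Acsl5 at 0.84 to Tecr, the last enzyme of the elongation cycle, at -1.41 in Tlr9het.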

How the data were processed

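Splenic B cells of 18 samples were profiled by stranded mRNA sequencing. The authors trimmed reads (Trim Galore 0.6.5), checked them with FastQC 0.11.7, aligned them to mm10 with STAR 2.6.1a, counted them with featureCounts (Subread 2.0.1), and deposited 1 table per sample of log2 CPM after quantile normalization and voom. No counts were used here, so depth per library and counting error are unknown. Among 6614 genes below -4 log2 CPM in all 12 Tlr9het and Tlr997 libraries, 6306 held 1 value per replicate number (within 0.0015), and in 822 that value differed between numbers, so an offset tied to the number is in the deposited values. It was not counted in Tlr779, but Hbb-b1 stood at -4.94, -4.76 and -5.46 in both unstimulated Tlr779 and unstimulated Tlr997. The main fits hold no term for the number, and the effect of the offset on their errors is unknown.

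Groups followed the sample titles. The log2 values were fitted with limma 3.58.1 in R 4.3.3 (lmFit, eBayes with trend). The 12 Tlr9het and Tlr997 libraries were fitted in 1 model, the 6 Tlr779 libraries apart. Genes over 0 log2 CPM in at least 3 fitted libraries were tested, and calls needed a Benjamini-Hochberg adjusted p under 0.05 over all of them and an absolute log2 fold change over 0.5. Log2 values near the filter understate folds of low genes. Errors after ± are SE, n = 3 per group. The protocol names 3 mice per genotype, without saying that a replicate number marks a mouse. The script was tested on simulated data.

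The members, the related gene lists and the tests were chosen with earlier results of these data known. All 33 members could be named; values in every library were given for the largest and smallest response of each branch with CpG in Tlr9het, for members called between genotypes or in opposite directions, and related genes by counts with the called extremes in Tlr9het (Mylip was named after its values were seen, and some related genes are not reported here). The CpG minus CL097 comparison was added after seeing the data. Same-numbered samples deviated together in Tlr9het (r = 0.51, 0.29 and 0.51 over genes) and Tlr779 (0.25, 0.49 and 0.33), but not clearly in Tlr997 (0.37, 0.083 and 0.025). Alternatives were other filters, a pseudocount of 1 CPM, other scalings, variance models, library weights, sample sets, fold thresholds, the replicate block and each library left out. Promoter sequences were taken from RefSeq (GRCm38.p6).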

Additional observations from a re-analysis of the deposited data

Results flagged for a closer look

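The difference between the CpG response of Tlr9het and the CL097 response of Tlr779 passed the test for 15 members, on the log2 scale and with limma's adjusted p. It was positive for Insig1 (0.89), Acat2 (0.8), Mvk (0.93, adjusted p = 0.05 after rounding), Idi1 (1.1), Fdps (0.6), Sqle (0.69), Lss (1.01), Cyp51 (0.76), Msmo1 (0.67), Hsd17b7 (1.04), Dhcr7 (0.72) and Elovl6 (1.7), and negative for Scd1 (-0.99), Abca1 (-2.1) and Abcg1 (-1.24). The Elovl6 libraries moved in opposite directions without overlap, higher with CpG in 3 of 3 same-numbered pairs and lower with CL097 in 3 of 3. These are the values behind the difference of 1.7 and add no separate support. In Tlr997 the pairs with CpG differed by 0.6, -0.46 and -0.19, and the CL097 call of Elovl6 was lost without some single libraries. Agonist, dose, receptor and its expression, genotype, sex, cell number and possibly age cannot be told apart in this contrast.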

How the results depend on the processing

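No called value of a member changed sign under any alternative, and 5267 of 5485 member values kept their side of the threshold. With a log2 fold threshold of 1 the members called higher and lower were 6 and 5 in the CpG response of Tlr9het, 11 higher in that of Tlr997, 1 higher with CL097, 0 and 0 between Tlr997 and Tlr9het with CpG, and 4 higher in the CpG minus CL097 difference. With no fold threshold 11 were lower with CL097. With no filter on low values, which tests 23420 genes, the counts were 0 and 0 between the genotypes with CpG and 4 higher in the CpG minus CL097 difference, and without the variance trend 0 were lower between the genotypes with CpG. Leaving out the libraries with the most erythroid RNA gave 0 and 0 between the genotypes with CpG, and 7 higher in the CpG minus CL097 difference whether number 1 of Tlr9het or number 2 of Tlr779 was dropped. The causes were not tested.

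Leaving out 1 library at a time gave 3 to 5 members higher with CL097 (5 without number 3 of the CL097 group), 0 to 1 higher and 0 to 1 lower between the genotypes with CpG, and 7 to 16 higher in the CpG minus CL097 difference. With the replicate block, 1 member (Lss) was called in the difference of CpG responses against 0 without it, and the other counts moved by less than 1.5 times. The pairing behind this block is unclear in Tlr997. The alternative of fitting only the compared groups was not run for the CL097 response and the differences of responses, which already hold only those groups. Without read counts, low genes such as Tm7sf2 and Fads2 are limited most.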
